A study of Mus musculus with 6 samples.

Results

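The ribosome is the particle that makes protein. Its large subunit joins amino acids and its small subunit reads the messenger RNA, and each is built of ribosomal RNA and of proteins that are made in near-equal numbers. Ribosomal protein messenger RNAs are among the most abundant transcripts of growing and secreting cells, and chondrocytes of the growing rib secrete large amounts of matrix protein. The genes described here are the cytosolic ribosomal protein genes, taken as all rows of the expression table whose symbol is Rpl, Rps or Rplp with a number and an optional a or x, plus Rpsa, with symbols of named pseudogenes left out. This gave 76 of 27734 genes, of which 46 encode large subunit proteins and 30 small subunit proteins. All 76 are annotated as protein coding in GENCODE.

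The cells were primary rib chondrocytes of mouse embryos at stage E18.5. One group of 3 libraries, called Jab1 cKO here, came from mutants in which both floxed Jab1 alleles are cut by Cre recombinase driven by Col2a1, a gene of cartilage cells, so cells of the rib digest that never express Col2a1 keep Jab1. The other group of 3 libraries came from wild-type embryos (WT). All cells were released with pronase and then collagenase D overnight and were taken without culture. Neither the number of embryos per library nor their sex is in the labels. Libraries are named by their column numbers 0, 1 and 2, and values are given in that order. The title of WT library 0 carries day 30 and those of the other 5 libraries day 24.

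Jab1, encoded by Cops5 (chr1:10024601-10038168, minus strand, mm10), is the catalytic subunit of the COP9 signalosome, which takes the ubiquitin-like protein Nedd8 off cullin ligases. Cops5 was at 17.0, 18.01 and 17.2 FPKM in cKO libraries, against 42.3, 39.8 and 40.1 FPKM in WT libraries (limma adjusted p = 6.5e-04). FPKM are fragments per kilobase of gene model, scaled by the mapped fragments of each library, so levels are per length. Comparison between genes is limited where reads match several genes, as the handling of such reads is not given in the sources used here. Column totals were 574007 to 620054 FPKM in cKO libraries and 571180 to 631534 FPKM in WT libraries. The 10 chondrocyte markers measured summed to 7398 to 11984 FPKM in cKO libraries and 10897 to 12723 FPKM in WT libraries. None of the 10 averaged under 1 FPKM. The sums overlapped through cKO library 0, but Sox9, Matn3, Comp and Lect1 were lower in every cKO library than in any WT library. Sox9 was at 70.6, 56.4 and 38.9 FPKM in cKO libraries, against 77.7, 74.3 and 75.2 FPKM in WT libraries. In the other markers the groups overlapped. Their part in the levels of the ribosomal protein genes was not tested.

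Ribosomal protein genes were slightly higher in Jab1 cKO chondrocytes as a group, by a small amount, but few passed the test one by one. Y-linked genes were also higher in every cKO library, so sex and genotype cannot be told apart in this comparison. Of the 67 members tested, 64 had a positive log2 fold change, with a median of 0.24. Over all 14012 genes tested the median was -0.00, and 49.4% were positive. Taking the level of 4 Y-linked genes as a covariate left 35 of the 67 members positive, with a median of 0.0086. Among the members 3 rose, Rps24 and Rpsa included, and no member fell. Their summed level was 14231 ± 722 FPKM in cKO libraries and 12349 ± 907 FPKM in WT libraries (SD, n = 3 each). The levels of single members spanned 0.0839 to 1391 FPKM, and this spread went along with how much of a gene's sequence is found in no other gene.

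Mouse ribosomal protein genes have many processed pseudogenes, which are copies of the messenger RNA put back into the genome. These libraries were read as single reads of 50 bases, so each representative messenger RNA was divided into all windows of 50 bases, and each window was looked for in all other annotated genes on both strands. The 3 windows here are examples, with Rps6 and Rpl24 among the members listed lowest and Rpl8 among the highest. Those of Rps6 and Rpl24 were chosen for many matches in other genes and that of Rpl8 for few. The contrast between them was thus set by the choice. Each is shown in lower case from 5′ to 3′ in the sense of the messenger RNA, from GENCODE transcripts of mm10, at coding bases 471 to 520 of Rps6, 249 to 298 of Rpl24 and 1 to 50 of Rpl8.
Rps6: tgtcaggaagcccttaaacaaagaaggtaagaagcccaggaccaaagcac
Rpl24: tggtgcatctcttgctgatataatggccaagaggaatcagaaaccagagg
Rpl8: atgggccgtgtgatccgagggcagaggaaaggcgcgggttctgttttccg
The window of Rps6 (gene at chr4:86854660-86857412, minus strand), whose protein is the target of the S6 kinases, occurs without a mismatch in 13 other genes. The window of Rpl24 (chr16:55966275-55971435, plus strand) occurs in 5 other genes. The window of Rpl8 (chr15:76904078-76906314, plus strand) occurs in no other annotated gene.

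In mammals this family is known for the terminal oligopyrimidine (TOP) start. There the transcript begins with a C followed by a run of pyrimidines, which lets mTOR signalling control its translation. In the RefSeq promoter table (GRCm38.p6, the same build as mm10), 56 members matched by symbol, with 66 start sites. At 13 of these starts (19.7%) the first base was a C that opened a run of at least 5 pyrimidines, against 2.51% of the 32851 promoters in the table and 0 of 75 promoters of mitochondrial ribosomal proteins. The 3 stretches below were chosen among the 13 member starts with such a run. They reach from 60 bases before the start to 15 after it. The pyrimidine run at the start and the motif CTTCCG or its reverse complement CGGAAG are in capitals.
Rps18: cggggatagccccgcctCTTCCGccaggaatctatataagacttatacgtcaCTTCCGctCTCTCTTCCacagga
Rps6: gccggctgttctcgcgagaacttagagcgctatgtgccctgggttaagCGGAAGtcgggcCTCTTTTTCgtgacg
Rps10: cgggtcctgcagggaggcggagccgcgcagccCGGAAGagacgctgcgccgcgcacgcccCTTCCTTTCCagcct
They lie at chr17:33955651-33955725 for Rps18, chr4:86857353-86857427 for Rps6 and chr17:27635230-27635304 for Rps10, all on the minus strand. The letters CTTCCG, the core bound by ETS factors such as GABP, stood on either strand of 62.1% of the member windows of 250 bases before to 50 after the start. They stood in 53.3% of the windows of mitochondrial ribosomal proteins and 16.9% of all promoters. The letters CTCTTTC or GAAAGAG stood in 30.3% of member windows, 5.33% of the mitochondrial list and 8.16% of all promoters, and TATAAA or TTTATA in 9.09%, 6.67% and 13.6%. CTTCCG and CTCTTTC, on either strand, can share at most 1 letter where they meet, and a match is a description of the letters and not of binding.

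The member listed highest was Rplp1, which with Rplp2 forms the flexible stalk that recruits translation factors to the large subunit. It measured 1454, 1522 and 1463 FPKM in cKO libraries, against 1578, 1093 and 1238 FPKM in WT libraries. WT library 0 was above every cKO library, and the groups overlapped. Rpl8, which lies next to the centre that joins amino acids, was at 947, 1026 and 1061 FPKM in cKO libraries, against 995, 825 and 827 FPKM in WT libraries. For Rpl8, WT library 0 lay above cKO library 0.

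Rps3, at the channel where messenger RNA enters, averaged 1010 ± 85.4 FPKM in cKO libraries and 874 ± 58.1 FPKM in WT libraries. Rpl4, which lines the tunnel through which the new protein leaves, averaged 940.3 ± 59.3 FPKM in cKO libraries and 847 ± 49.8 FPKM in WT libraries. Rps9 averaged 709.7 ± 46.9 FPKM in cKO libraries and 698 ± 21.2 FPKM in WT libraries, the smallest difference among the 26 small subunit genes tested. None of these 5 passed the test (limma adjusted p 0.31 to 0.91 for Rplp1, Rpl8, Rps3, Rpl4 and Rps9). The 5 highest members held 40.1% of the summed level over all libraries.

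**Figure D1:**
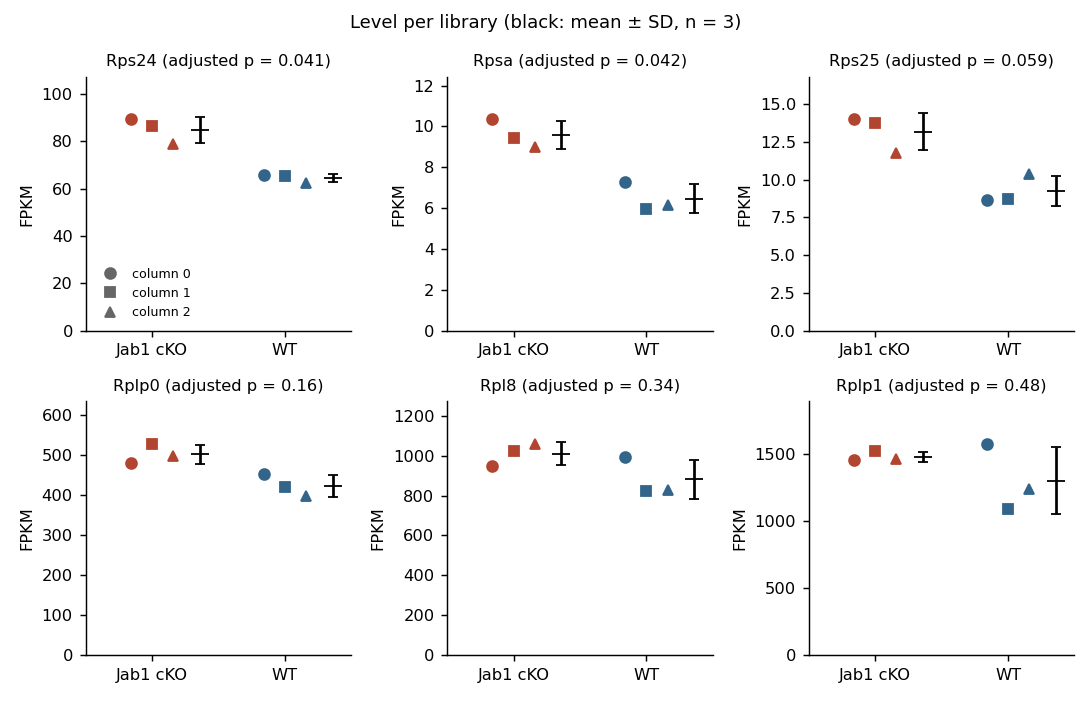
Level in FPKM of 6 members in each library (Jab1 cKO left, WT right; symbols mark the column number; black bars mark mean ± SD, n = 3). The groups do not overlap for Rps24, Rpsa, Rps25 and Rplp0, while for Rpl8 and Rplp1 WT library 0 reaches into or above the range of the cKO libraries.

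Levels fell off steeply below these genes. In all, 25 members averaged at least 100 FPKM, 24 averaged 10 to under 100 FPKM, 18 averaged 1 to under 10 FPKM and 9 averaged under 1 FPKM. The median was 31.6 FPKM for large subunit genes and 53.9 FPKM for small subunit genes. The 9 genes under 1 FPKM were not tested, and included Rpl10a, Rpl23a, Rpl24, Rpl35, Rpl36a, Rps6, Rps16 and Rps29. Rpl10a, at 0.875 FPKM, was just outside the limit, and Rps28, at 1.39 FPKM, was just inside it.

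Several of these low genes encode proteins present in every ribosome. Rps6 was listed at 0, 0.352 and 0.371 FPKM in cKO libraries, against 0.244, 0.433 and 0.352 FPKM in WT libraries. The groups of Rps6 overlapped, with the lowest value in cKO library 0. Rps16 was at 0.550, 0.491 and 0.766 FPKM in cKO libraries, against 0.163, 0.929 and 0.461 FPKM in WT libraries, which overlap as well. Rpl24 was listed at 0 in all 3 cKO libraries, against 0.371, 0.259 and 0.178 FPKM in WT libraries. A listed 0 may also stand for an estimate that failed, so no fold is given.

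The level of a member moved with the share of its coding sequence that is found in no other annotated gene. In 30 members none of the coding windows was unique, and their median level was 4.85 FPKM, with 23 of the 30 under 10 FPKM. In the 28 members with more than 0 and under 20% unique coding windows the median was 54.7 FPKM. In the 8 with 20 to under 50% it was 391 FPKM, and in the 10 with at least 50% it was 666 FPKM, with a range of 145 to 1157 FPKM.

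Spearman's rho between the unique coding share and the mean level was 0.84 across the 76 members and 0.57 with windows of the whole messenger RNA. Across 77 mitochondrial ribosomal protein genes, rho for the coding share was 0.14, but 68 of them had at least 50% unique coding windows, so this list can hardly show such a relation. The 2 mitochondrial genes with more than 0 and under 20% averaged 0.177 and 1.55 FPKM, against a median of 18.9 FPKM for those 68. The 2 without any unique coding window averaged 0.836 and 29.3 FPKM, so 1 of them lay above that median. These are descriptions across genes of the same 6 libraries. There were exceptions. Rpl41, which encodes a very short basic peptide, had no unique coding window and averaged 255 FPKM, and Rpl35, with 8.44% unique coding windows, averaged 0.408 FPKM. How the authors' pipeline placed reads that match several genes is not given in the sources used here, and its part in these levels was not tested.

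**Figure D2:**
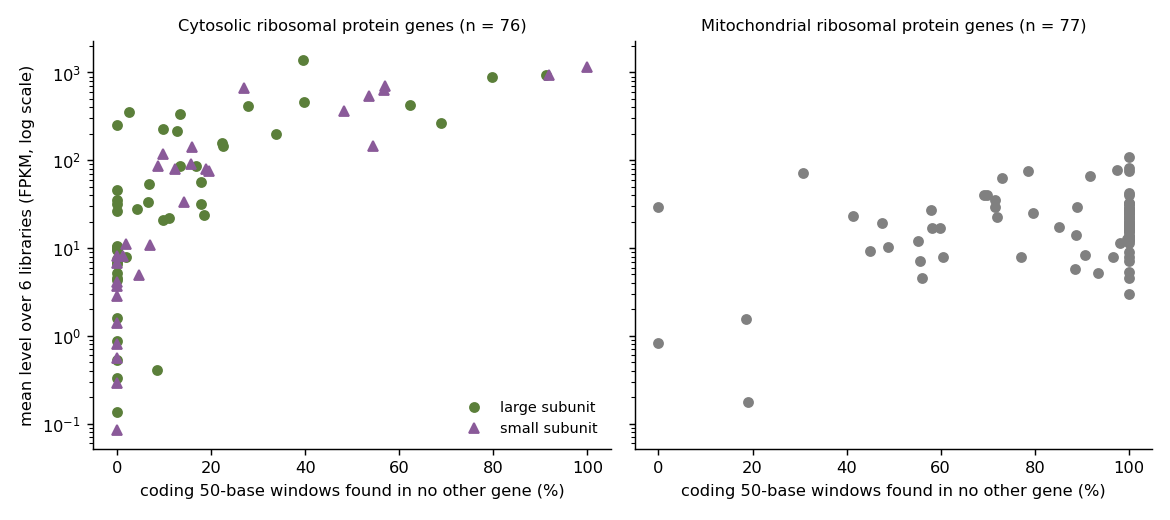
Mean level over the 6 libraries (FPKM, log scale) against the share of coding 50-base windows found in no other annotated gene, for 76 cytosolic and 77 mitochondrial ribosomal protein genes. Cytosolic genes without a unique window lie mostly under 10 FPKM and those with at least 50% lie at 145 to 1157 FPKM (rho 0.84). Of the mitochondrial genes 68 have at least 50%, so few points lie at low shares.

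The copies themselves carried much of the family's signal. In the table, 631 pseudogenes shared at least 1 window with a member, and the copies of 33 members summed to a higher level than the member. Few copies held this signal. Of the 631, 544 averaged under 1 FPKM, and the 21 at 100 FPKM or more held 87.2% of the copy sum. The copies named here were chosen after their values were seen. Gm14303, an annotated processed pseudogene of Rps29 on chromosome 2, was listed at 2249, 2467 and 2573 FPKM in cKO libraries, against 2141, 2199 and 1964 FPKM in WT libraries. That is above every member, while Rps29 itself was at 0.940, 0.642 and 0.205 FPKM in cKO libraries, against 1.63, 0.398 and 0.977 FPKM in WT libraries. Rpl38-ps2 averaged 909 FPKM over the 6 libraries, against 1.60 FPKM for Rpl38, and Rpl36a-ps2 averaged 318 FPKM, against 0.330 FPKM for Rpl36a. Of the windows of the whole messenger RNA, 64.2% were unique in Rps29, 47.9% in Rpl38 and 14.5% in Rpl36a, but none of the coding windows was.

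The copies summed to 9849, 11712 and 11573 FPKM in cKO libraries, against 11197, 9805 and 9638 FPKM in WT libraries, with WT library 0 above cKO library 0. Members and copies together gave 25275 ± 1732 FPKM in cKO libraries and 22563 ± 1763 FPKM in WT libraries (SD, n = 3 each), a ratio of 1.12, and here too WT library 0 stood above cKO library 0, so the groups overlapped. Of the 87 copies tested, 62 had a positive log2 fold change, 3 rose (3.45%) and none fell, which for rises is near the 3.48% of all genes tested.

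**Figure D3:**
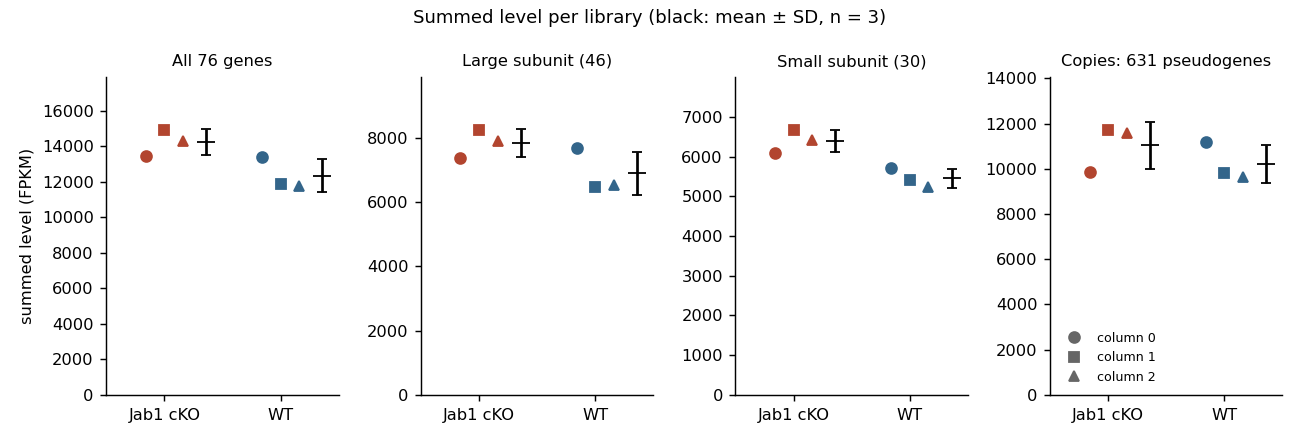
Summed level in FPKM per library for all 76 members, the 46 large and 30 small subunit genes and the 631 pseudogenes that share a window with them (Jab1 cKO left, WT right; symbols mark the column number; black bars mark mean ± SD, n = 3). Over all members and over small subunit genes the groups do not overlap, while large subunit genes and copies overlap through WT library 0 and cKO library 0.

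The comparison of Jab1 cKO with WT asks whether loss of Jab1 in cartilage cells goes with a change in the messenger RNAs of the translation machinery. Of the 67 members tested, 3 rose and 0 fell at a limma adjusted p under 0.05, which is 4.48% of them, against 3.48% of all genes tested called higher, 2.59% called lower and 6.07% called either way. The share called was thus near the background. At an unadjusted limma p under 0.05, 25 members were higher and 0 lower, against 12.7% and 12% of all genes. In 26 members (38.8%) all 3 cKO libraries lay above all 3 WT libraries, against 16.3% of all genes tested, and in none below, against 15.9% of all genes. As the labels do not name separate embryos, the p-values speak only of library-to-library spread, which could be technical, and an exact permutation test of 3 libraries against 3 cannot give a p under 0.1.

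Rps24, a small subunit protein mutated in some people with Diamond-Blackfan anaemia (chr14:24487125-24496959, plus strand), was at 89.3, 86.6 and 78.7 FPKM in cKO libraries, against 65.6, 65.3 and 62.4 FPKM in WT libraries. All cKO libraries were above all WT libraries, and the fitted log2 difference was 0.39 (SE 0.0729, limma adjusted p = 0.041). Rpsa, a small subunit protein also known as the laminin receptor (chr9:120127689-120132369, plus strand), was at 10.3, 9.41 and 8.99 FPKM in cKO libraries, against 7.27, 5.94 and 6.17 FPKM in WT libraries. The groups were again apart, by 0.51 on the log2 scale (SE 0.0958, limma adjusted p = 0.042). Rpsa has 1.20% unique coding windows and Rps24 19.6%, and the rest of their coding windows occur in other genes as well. The pseudogene copies of Rps24 summed to means of 316 FPKM in cKO libraries and 295 FPKM in WT libraries. Those of Rpsa summed to 15.6 and 15.3 FPKM. In both cases the copies were listed above the member. How reads were shared between these members and their copies was not tested.

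Among the copies that rose were Rps26-ps1, at 142 ± 18.4 FPKM in cKO libraries and 93.4 ± 3.00 FPKM in WT libraries, and Gm6023, a copy of Rpl13a, at 10.2 ± 0.467 FPKM in cKO libraries and 7.20 ± 0.726 FPKM in WT libraries (SD, n = 3 each; limma adjusted p = 0.040 and 0.043). Rps26 itself, which lies at the messenger RNA exit, was at 747, 757 and 713 FPKM in cKO libraries, against 542, 666 and 596 FPKM in WT libraries. The groups of Rps26 did not overlap, but it did not pass (limma adjusted p = 0.16).

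These 3 calls did not hold when libraries were left out. Without any 1 of the WT libraries, or without cKO library 1 or 2, no member was called, and without cKO library 0 only 1 was, neither Rps24 nor Rpsa. Without WT library 0, which leaves the libraries whose titles carry day 24, 63 of 67 members were positive, 62 of them also positive with all libraries, with a median log2 fold change of 0.26, and the sum was 1.20 times that of WT. The direction of the group did not depend on 1 library in this sense, as leaving out each in turn left 59 to 65 members positive and a median of 0.21 to 0.26. Quantile normalization left 57 of 67 positive with a median of 0.18.

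Both subunits were mostly positive, and the difference between them was not tested. Among large subunit genes 38 of 41 tested had a positive log2 fold change (median 0.23), with 1 called, and among small subunit genes 26 of 26 (median 0.28), with 2 called. The small subunit sum was 6096, 6666 and 6422 FPKM in cKO libraries, against 5717, 5401 and 5232 FPKM in WT libraries, and the groups did not overlap. The large subunit sum was 7376, 8243 and 7889 FPKM in cKO libraries, against 7678, 6477 and 6543 FPKM in WT libraries. WT library 0 stood above cKO library 0 there, so the groups overlapped. The ratio of large to small subunit sums was 1.21, 1.24 and 1.23 in cKO libraries, against 1.34, 1.20 and 1.25 in WT libraries, which overlap.

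**Figure D4:**
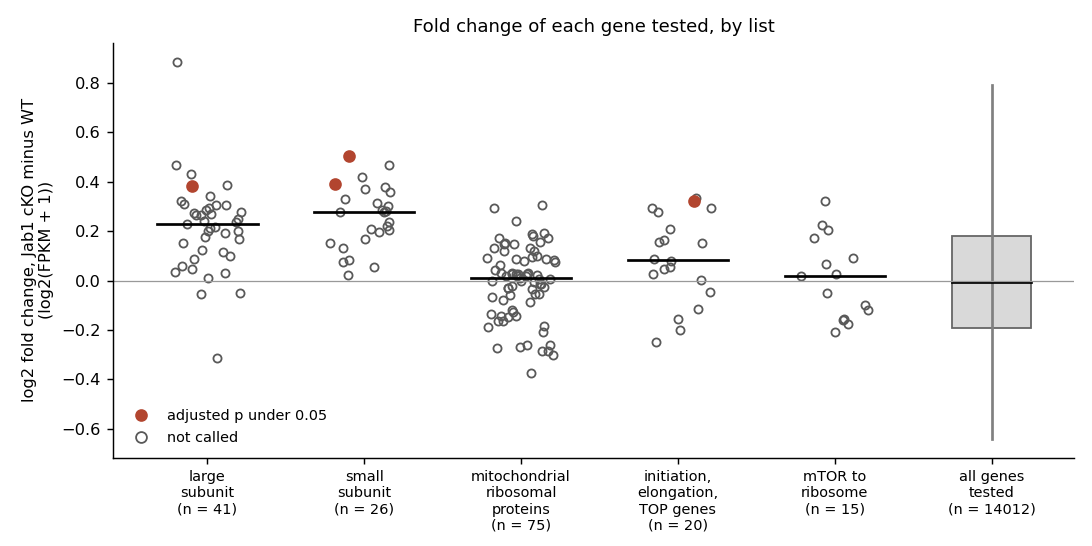
Log2 fold change (Jab1 cKO minus WT, log2(FPKM + 1)) of every tested gene of the large subunit, the small subunit and 3 companion lists, with the median as a black line and genes at an adjusted p under 0.05 filled. For all genes tested the box spans the quartiles and the line the central 90%. The medians of both subunits (0.23 and 0.28) lie above 0 and that of mitochondrial ribosomal protein genes at 0.01.

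As a share of all FPKM, the 76 genes held 2.25, 2.40 and 2.49% in cKO libraries, against 2.12, 2.08 and 2.06% in WT libraries, so the groups were apart on this scale too. Library 0 of each group stood nearest to the other group. Set against the WT mean, the median member differed by 0.18, 0.28 and 0.24 on the log2(FPKM + 1) scale in cKO libraries and by 0.11, -0.02 and -0.03 in WT libraries. WT library 0 held the highest WT value for 43 of the 67 members tested, and cKO library 0 the lowest cKO value for 38. The 10 members with at least 50% unique coding windows gave the same ratio as the whole set, 7131 ± 334 FPKM in cKO libraries and 6188 ± 419 FPKM in WT libraries, or 1.15, and all 10 had a positive log2 fold change.

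**Figure D5:**
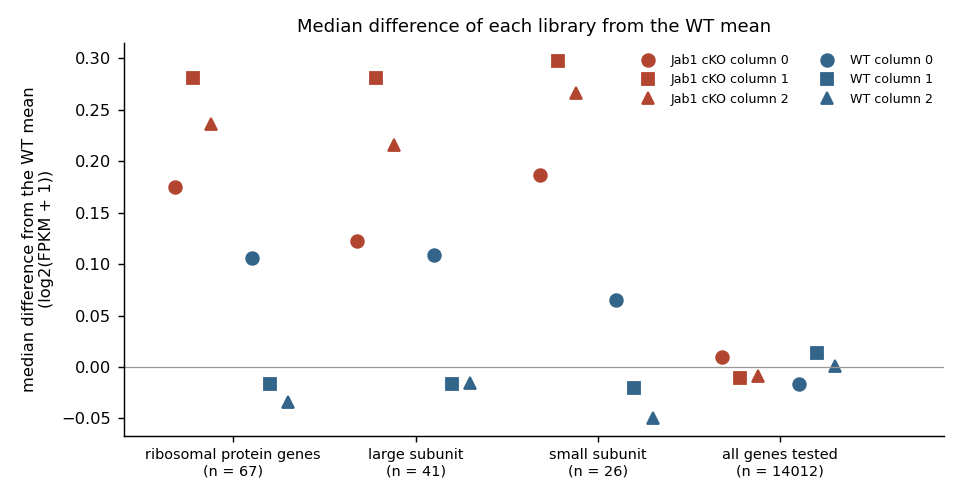
Median difference of each library from the WT mean on the log2(FPKM + 1) scale, over 67 ribosomal protein genes, the 41 large and 26 small subunit genes among them and all 14012 genes tested (Jab1 cKO red, WT blue). The cKO libraries lie at 0.18 to 0.28 over the ribosomal protein genes and WT library 0 at 0.11, while all libraries lie within 0.02 of 0 over all genes.

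The spread between libraries of a group was lower than that of all genes in cKO libraries and slightly higher in WT libraries. The coefficient of variation over 3 libraries had a median of 9.20% in cKO libraries and 10.3% in WT libraries for the 67 members tested, against 12.4% and 10.1% over all genes tested. It was larger for low genes, at 13.2% in cKO libraries and 15.2% in WT libraries for members under 10 FPKM, against 7.56% and 9.25% at or above 10 FPKM. Over all genes tested it was 16.1% and 13.0% under 10 FPKM, and 9.46% and 7.84% at or above 10 FPKM. Rps28, a small protein of the subunit head, varied most among the members tested. It was at 3.32, 1.18 and 0.653 FPKM in cKO libraries, against 0.736, 1.89 and 0.566 FPKM in WT libraries. Rpl28 was at 5.38, 4.35 and 4.40 FPKM in cKO libraries, against 2.15, 7.10 and 4.01 FPKM in WT libraries. In both genes the groups overlapped. The within-group variation of Rps12 was 16.8% in cKO libraries and 18.4% in WT libraries, and that of Rps10 was 17.9% and 21.8%.

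The largest difference among large subunit genes was in Rpl19, whose protein lies at the tunnel exit and reaches over to the small subunit. It was at 7.72, 5.06 and 4.89 FPKM in cKO libraries, against 4.04, 2.72 and 1.62 FPKM in WT libraries. The groups did not overlap, but the log2 fold change of 0.89 (SE 0.280) did not pass (limma adjusted p = 0.13), and no coding window of Rpl19 is unique. Rpl10, an X-linked gene whose protein joins late in assembly near the active centre, was at 10.01, 6.87 and 6.54 FPKM in cKO libraries, against 4.51, 5.74 and 5.67 FPKM in WT libraries (limma adjusted p = 0.17). Rpl13 averaged 53.1 ± 2.33 FPKM in cKO libraries and 39.4 ± 6.87 FPKM in WT libraries (limma adjusted p = 0.12).

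Among small subunit genes the largest differences beside Rpsa were in Rps25, which has a known role in initiation at internal ribosome entry sites, and in Rps27. Rps25 was at 14.0, 13.7 and 11.8 FPKM in cKO libraries, against 8.65, 8.73 and 10.4 FPKM in WT libraries (log2 fold change 0.47, SE 0.103, limma adjusted p = 0.059). It was called when genes under a mean of 5 FPKM, or genes that do not code for protein, were left out. Rps27 averaged 9.43 ± 1.33 FPKM in cKO libraries and 6.80 ± 1.07 FPKM in WT libraries (limma adjusted p = 0.15). The groups were apart in both genes.

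Of the members that did not pass, Rps15 in the subunit head came nearest to the threshold after the 3 called. It was at 739, 702 and 686 FPKM in cKO libraries, against 539, 564 and 541 FPKM in WT libraries, with 56.7% unique coding windows (log2 fold change 0.37, limma adjusted p = 0.056). It was chosen after its values were seen. The gap between the groups was wider than the range within each.

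Only 3 tested members had a negative log2 fold change, all of the large subunit. Rpl38, which in mice is known to be needed for normal patterning of the axial skeleton, was at 0.518, 1.78 and 1.78 FPKM in cKO libraries, against 2.06, 1.60 and 1.83 FPKM in WT libraries. The low value came from cKO library 0 and the groups overlapped (log2 fold change -0.31, limma adjusted p = 0.51). Rpl39, an X-linked gene for a very small protein at the tunnel exit, was at 268, 376 and 341 FPKM in cKO libraries, against 348, 330.3 and 336 FPKM in WT libraries (log2 fold change -0.05, limma adjusted p = 0.85). Rpl27 averaged 10.4 ± 1.24 FPKM in cKO libraries and 10.9 ± 1.58 FPKM in WT libraries (log2 fold change -0.05, limma adjusted p = 0.85). The signs of Rpl39 and Rpl27 turned without cKO library 0.

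By place and role in the ribosome, no class stood out. All 3 stalk genes were positive. Rplp0, the base of the stalk, was at 481, 528 and 498 FPKM in cKO libraries, against 452, 420.1 and 397 FPKM in WT libraries, with the groups apart (limma adjusted p = 0.16). Rplp2 averaged 215 ± 24.4 FPKM in cKO libraries and 180 ± 31.8 FPKM in WT libraries (limma adjusted p = 0.37). Of the 7 genes tested for proteins around the tunnel exit 6 were positive, and of the 11 tested for the head of the small subunit 11 were, with medians of 0.27 and 0.24 and none called. Of 15 tested genes whose human counterparts are mutated in Diamond-Blackfan anaemia 14 were positive (median 0.30) and 1, Rps24, was called.

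Rpl5 and Rpl11, which with 5S ribosomal RNA bind and block the p53 ligase Mdm2 when ribosome assembly is disturbed, did not pass. Rpl5 was at 9.26, 11.7 and 9.75 FPKM in cKO libraries, against 9.43, 9.53 and 11.4 FPKM in WT libraries, and the groups overlapped. Rpl11 was at 11.7, 10.8 and 9.22 FPKM in cKO libraries, against 9.66, 8.34 and 7.11 FPKM in WT libraries, which also overlap (limma adjusted p = 0.22). Over all 10 members tested that are known to bind Mdm2, 10 were positive with a median log2 fold change of 0.26, and none was called. Rps7, another of them, had 5.10 ± 0.463 FPKM in cKO libraries and 4.87 ± 0.436 FPKM in WT libraries. Rps27a, whose protein is made as a fusion with ubiquitin, had 2.94 ± 0.188 FPKM in cKO libraries and 2.73 ± 0.413 FPKM in WT libraries. Rps18, also of the head, had 81.7 ± 8.77 FPKM in cKO libraries and 77.2 ± 0.916 FPKM in WT libraries.

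Genes of the family outside the symbol rule behaved alike in sign. The 4 measured, Rack1, Rps3a1 and Fau among them, were all positive (median 0.24) and none was called. Rack1, a signalling scaffold on the small subunit, was at 778, 869 and 852 FPKM in cKO libraries, against 818, 718 and 726 FPKM in WT libraries, with WT library 0 above cKO library 0. Fau, a ubiquitin-like fusion that yields Rps30, had 3.64 ± 0.525 FPKM in cKO libraries and 2.33 ± 0.322 FPKM in WT libraries (limma adjusted p = 0.096). Of 6 tested paralogs all were positive and none was called. Rps27l, a paralog of Rps27 and a known p53 target, was at 168, 229 and 214 FPKM in cKO libraries, against 153, 123 and 143 FPKM in WT libraries. Its groups were apart, with a log2 fold change of 0.53 (limma adjusted p = 0.099).

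Ribosomal proteins of mitochondria, which serve a separate ribosome, were centred on 0. Of 75 tested, 40 were positive (median log2 fold change 0.01), and none was called, with 3 higher and 4 lower at an unadjusted limma p under 0.05. Mrpl52, the most abundant, was at 84.5, 92.7 and 103 FPKM in cKO libraries, against 138, 104 and 123 FPKM in WT libraries (limma adjusted p = 0.16). Of 20 translation factors and other TOP genes 15 were positive (median 0.08) and 1 rose. That was Eif4a2, an RNA helicase of initiation, at 110, 113 and 115 FPKM in cKO libraries, against 91.1, 91.6 and 86.8 FPKM in WT libraries (log2 fold change 0.32, limma adjusted p = 0.042). Eef1a1, the elongation factor that brings transfer RNA, had 1125, 1081 and 978 FPKM in cKO libraries, against 978, 820.3 and 829 FPKM in WT libraries (limma adjusted p = 0.21). Of 15 genes that link mTOR to the ribosome 8 were positive (median 0.02) and none was called.

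Some other measures moved with genotype, and others did not. The summed level of 4 Y-linked genes was 14.6 to 82.8 FPKM in cKO libraries and 0.0281 to 0.639 FPKM in WT libraries, so sex and genotype cannot be told apart in this comparison. With the log2 of that sum as a covariate, 35 of 67 members were positive. Their median log2 fold change was 0.01 (-0.02 for large and 0.01 for small subunit genes) and none was called, while 26 of all genes were. The groups do not overlap in this covariate, so the fit cannot separate it from genotype. Of the X-linked members, Rps4x was at 121, 140 and 133 FPKM in cKO libraries, against 116, 105 and 95.7 FPKM in WT libraries, with the groups apart (limma adjusted p = 0.13). The 7 erythroid markers summed to 14.9 to 49.4 FPKM in cKO libraries and 196 to 221 FPKM in WT libraries. The 5 granulocyte markers summed to 0.837 to 6.62 and 64.9 to 189.9 FPKM. The 6 skeletal muscle markers summed to 49.7 to 71.8 and 139 to 169 FPKM. The muscle difference lay in Tnnt3, at 41.6, 63.5 and 50.3 FPKM in cKO libraries, against 162, 137 and 123 FPKM in WT libraries. In each other muscle marker the groups overlapped. Sums of macrophage and osteoclast markers overlapped, at 82.0 to 289 FPKM in cKO libraries and 86.4 to 137 FPKM in WT libraries. Endothelial markers overlapped too, at 0.965 to 8.20 and 2.17 to 3.46 FPKM. So did the sums of fibroblast and perichondrium markers, at 720 to 1126 and 815 to 1128 FPKM. Behind these overlapping sums, Lyz2 was lower, at 3.48, 7.4 and 11.8 FPKM in cKO libraries, against 26.4, 21.4 and 45.6 FPKM in WT libraries. Dcn was lower too, at 305, 363 and 355 FPKM against 518, 524 and 469 FPKM. Twist1 was higher, at 6.82, 7.31 and 8.04 FPKM against 4.36, 3.76 and 4.37 FPKM. In each other marker of these lists the groups overlapped. None of these markers was at 0 in every library, and their part in the levels of the ribosomal protein genes was not tested. In RNA of mixed cells, fewer cells of a type and less RNA per cell cannot be told apart.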

How the data were processed

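Total RNA libraries, stranded and depleted of ribosomal RNA, were read on a HiSeq instrument as single reads of 50 bases, per the labels' protocols. The authors deposited 1 table of FPKM values for 27734 genes and 6 libraries. STAR, Cufflinks, Cuffdiff and mm10 are named in the submitters' processing notes, and CLC Genomics Workbench in the labels' protocols. Versions, settings and the handling of reads matching several genes are not given in the sources used here. Read depth is unknown, so no counting intervals are given. The deposited FPKM are relative to each library's mapped reads, so they show shares and not amounts per cell.

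Descriptions number the libraries 0, 1 and 3 and columns 0, 1 and 2, and by their names, per the file headers, 4 columns belong to a known sample and 2 to a known group. The 14012 genes that averaged 1 FPKM or more were tested on log2(FPKM + 1) with limma 3.58.1 in R 4.3.3 (lmFit, eBayes with trend), two-sided, with Benjamini-Hochberg adjustment over all of them, and the script was tested on simulated data. Fold changes on this scale understate changes of low genes. Rises and falls are calls at an adjusted p under 0.05. The members and all lists were chosen with earlier results of these data known. Members named are those called, the highest, the largest rises and falls and the most variable of each subunit, those not tested, X-linked members and genes of the stalk and of Mdm2 binding. Some picked by this rule are given only by counts, and results for some are not reported here. Windows of 50 bases came from GENCODE M21 transcripts on mm10, and promoters from RefSeq.

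Other settings were pseudocounts of 0.5 and 0.1, a filter at 5 FPKM or none, median-of-ratios scaling with and without members, quantile normalization, a robust prior, library weights, a replicate block, protein-coding genes only, a Y-linked covariate and leaving out each library. Sums over members with at least 50% unique coding windows were added after seeing the data.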

Additional observations from a re-analysis of the deposited data

How the results depend on the processing

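The direction of the group held under the scalings tried. The ribosomal protein genes had a positive median log2 fold change under all 18 alternatives. It was 0.18 to 0.28, but 0.0086 once the Y-linked level was a covariate, when 35 members were positive. The groups do not overlap in that covariate, so this fit cannot separate it from genotype. The sum in Jab1 cKO over WT was 1.12 to 1.20. The number of members called higher, 3, was less stable: 1 without the filter and with quantile normalization, 10 under library weights, 6 among protein-coding genes alone, 0 with the Y-linked covariate, and 0 to 1 when a library was left out. No member was called lower in any setting. Of companion genes 1 was called, Eif4a2, against 0 without the filter, with quantile normalization and with the covariate, 3 under library weights, 2 among protein-coding genes and 0 when any library was left out.

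Over all genes 850 were called, against 461 without the filter, 1488 under library weights, 1373 among protein-coding genes, 26 with the covariate and 174 to 666 when a library was left out (288 and 197 without cKO libraries 1 and 2, and 174, 192 and 178 without WT libraries 0, 1 and 2). With column number as a replicate block 0 members, 0 companion genes and 60 genes in all were called. Deviations of same-numbered libraries correlated at -0.03, -0.04 and -0.02, which shows no sign of pairing over all genes tested. These values cannot exclude a shared litter or batch, and the labels do not say what the numbers mean.

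Log2 fold changes of some uncalled members turned sign, 29 of the 67 with the covariate and 7 with quantile normalization, all to negative. The covariate put the median at -0.019 for large and 0.013 for small subunit genes. Among the members followed one by one, those that turned with the covariate were Rpl4 (-0.060), Rpl5 (-0.52), Rpl8 (-0.062), Rplp2 (-0.091), Rps18 (-0.46), Rps27a (-0.21), Rps3 (-0.19), Rps7 (-0.072) and Rps9 (-0.28). With quantile normalization they included Rpl5 (-0.00071) and Rps9 (-0.15), and under library weights Rpl27 (0.063) and Rpl39 (0.050). With a library left out the ranges were -0.13 to 0.053 for Rpl27, -0.16 to 0.52 for Rpl28, -0.16 to 0.085 for Rpl39, -0.078 to 0.093 for Rpl5, -0.065 to 0.63 for Rps28, -0.0078 to 0.10 for Rps7 and -0.025 to 0.071 for Rps9. The ratio of large to small subunit sums was 1.07 in cKO and 1.10 in WT libraries without the 5 highest members. The cause of these changes was not tested. With 3 libraries a group, members under 10 FPKM and members without unique windows are measured least firmly.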
